A study of Mus musculus with 2 samples.

Results

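The transcripts described here encode 7 secreted ligands that act on blood and lymph vessels, Apln, Vegfb, Vegfc, Pgf, Angpt1, Angptl2 and Angptl4, out of 25509 genes in the count table. They were chosen by name after earlier results of these data were known, and the list was drawn up because Apln was among the largest decreases. The values that chose them are therefore the same counts that are given below, and these are a description without a test. All 7 genes passed the filter, a minimum of 10 counts in at least 1 library. Other members of the VEGF family than these and Vegfd were not analysed here.

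One library came from cells with a hairpin against the circular RNA circCsnk1g3 (shcircCsnk1g3) and 1 from cells with the control hairpin (shCTR). Both were soft-tissue sarcoma cells of C57BL/6 mice, derived from p53-/- mesenchymal stem cells in which Ccne1 was overexpressed from a retroviral vector. The cells had grown as subcutaneous tumors, then as foci in the lungs of secondary recipients, and were isolated again before the lentiviral hairpins were introduced. Several hairpin designs against circCsnk1g3 are listed. The paper states that the sequenced cells carried the hairpins of its initial knockdown experiment, and it describes the additional designs separately, with RTqPCR. Which of the listed designs that initial hairpin was is not given in the sources used here. With 1 library per condition no replicate check and no p-value was possible.

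Apelin, the product of Apln, is a short secreted peptide whose receptor on sprouting endothelial cells is encoded by Aplnr. The VEGF family ligands bind receptor tyrosine kinases of endothelium, with Vegfb and Pgf acting on Flt1 and Vegfc on Flt4 and Kdr. Angpt1 activates the endothelial receptor Tek, whereas the angiopoietin-like proteins Angptl2 and Angptl4 do not bind it. Tumors release such ligands to draw in vessels, and several of the genes respond to low oxygen.

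Depth was alike, with a total of 38792143 counts for shcircCsnk1g3 and 42709996 for shCTR. Levels are given as CPM, counts scaled to 1000000 per library with TMM factors. The log2 fold change is shcircCsnk1g3 over shCTR with a prior count of 2, and the range after it is its 95% counting interval (exact, Clopper-Pearson). This interval compares the 2 libraries and covers counting error only, not differences between cultures or amplification duplicates. The host gene Csnk1g3 had 2159 counts against 2411, a log2 fold change of -0.05 (-0.14 to 0.03), and a poly(A) library does not measure the circular RNA. Ccne1 had 893 and 963 counts, and Trp53 3841 and 4334, a count per gene that does not show which exons the reads cover.

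The upstream sequence of Apln is shown because that gene differed most, and that of Vegfb because it held the most matches to the core described next. Both are the 250 bases before the RefSeq start (GRCm38.p6), on the minus strand, written 5′ to 3′, at chrX:48034854-48035103 for Apln and chr19:6987652-6987901 for Vegfb. Capitals mark the core letters bound by hypoxia-inducible factors (HIF), ACGTG or GCGTG on either strand.
Apln: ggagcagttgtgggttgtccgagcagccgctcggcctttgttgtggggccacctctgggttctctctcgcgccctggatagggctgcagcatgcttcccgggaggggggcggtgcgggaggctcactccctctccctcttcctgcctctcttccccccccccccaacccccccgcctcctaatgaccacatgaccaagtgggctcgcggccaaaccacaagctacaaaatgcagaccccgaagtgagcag
Vegfb: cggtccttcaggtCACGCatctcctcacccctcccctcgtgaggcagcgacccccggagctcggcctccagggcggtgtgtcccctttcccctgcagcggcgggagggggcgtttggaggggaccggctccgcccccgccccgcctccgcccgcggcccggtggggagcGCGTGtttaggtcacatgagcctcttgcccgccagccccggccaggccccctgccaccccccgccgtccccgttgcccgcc
The Apln window held no such core, and the Vegfb window held 2, which begin 237 and 81 bases before the start. Of 32851 promoter windows of the same length, 38.6% held at least 1. Windows were found for 5 of the 7 genes, and those of Vegfc and Angptl2 held no core either. Pgf had 2 windows, both inside annotated exons and not shown, of which 1 held a core that begins 124 bases before the start. Thus 2 of the 5 genes, Vegfb and Pgf, held it. The letters TATAAA, a core promoter element, were in none of the windows of these genes and in 12.4% of all windows. A pattern resembling the interferon-stimulated response element was also searched for, and it was in none of these windows and in 2.98% of all windows. GC content was 65.2% in the Apln window and 76.4% in the Vegfb window, against a median of 52.4%. A match of letters is a description of the sequence and not a binding site.

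Apln (ENSMUSG00000037010.7) lies on the minus strand of chromosome X from 48025146 to 48034853 (GRCm38), and no other annotated gene overlaps it. Silenced cells had 369 counts of it and control cells 1345. On the CPM scale, this was 9.41 (8.47 to 10.4) against 31.8 (30.2 to 33.6), where the ranges are exact Poisson intervals. The level after silencing was 29.6% of the control level, and the log2 fold change was -1.75 (-1.93 to -1.59). Apln held place 9 from the lowest among the 10662 genes whose counts in both libraries sum to 200 or more. The 8 genes below it, listed after their values were seen, were Acan, Basp1, Cnn1, Gemin4, Gm20721, Arap3, Cd33 and Ggt7. Of these, Acan, which encodes the cartilage proteoglycan aggrecan, alone had a higher CPM than Apln in the control library, at 55.2. By the absolute difference in log2 fold change, which is 1 value over 2 libraries, the genes nearest to Apln were Ggt7 (-1.78), Cd33 (-1.83), Tgfbr2 (-1.59) and Dazap2 (-1.59). Tgfbr2, a receptor of transforming growth factor beta, had 2013 counts against 6544. In bulk RNA such as this, fewer cells that express a gene and less of its RNA per cell cannot be told apart.

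**Figure D1:**
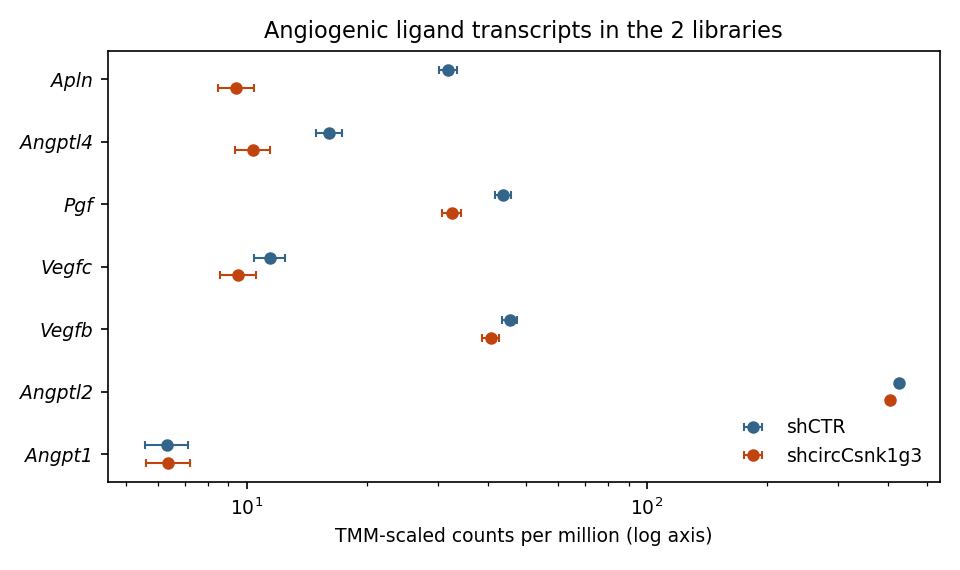
TMM-scaled CPM of the 7 ligands in the shCTR and shcircCsnk1g3 libraries, on a log axis, with 1 library per condition. Points are the levels and bars the 95% Poisson intervals of the counts. The intervals of the 2 libraries lie apart for Apln, at 31.8 in shCTR and 9.41 in shcircCsnk1g3, and overlap for Angpt1, at 6.32 and 6.38.

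The 3 VEGF family genes were lower after silencing by far less than Apln. Pgf, which encodes placental growth factor, had 1276 counts after silencing and 1843 without it. Its level was 32.5 CPM against 43.6, a log2 fold change of -0.42 (-0.53 to -0.32). Pgf spans 85166635 to 85177790 on the minus strand of chromosome 12. Thus 74.6% of its control level was found after silencing, and 5.80% of the genes with at least 200 summed counts had a lower value than Pgf.

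Vegfc, the main growth factor of lymphatic vessels, had 374 counts against 482. Its level was 9.54 CPM against 11.4, a log2 fold change of -0.26 (-0.46 to -0.06). The counts of Vegfc are low and the interval is wide, with an upper end close to 0. Vegfc spans 54077606 to 54187096 on the plus strand of chromosome 8. Vegfb, a ligand of Flt1 known for its role in the survival of vessels, had 1596 counts against 1917, or 40.7 CPM against 45.4. It spans 6982473 to 6987651 on chromosome 19, minus strand. Its log2 fold change of -0.16 (-0.25 to -0.06) was the smallest of the 3. Summed over Vegfb, Vegfc and Pgf, the counts were 3246 and 4242, which is 82.8 CPM against 100.4 CPM.

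The genes of the angiopoietin family ranged from a clear difference to none that could be detected. Angptl4, which encodes a secreted inhibitor of lipoprotein lipase and responds to both low oxygen and fatty acids, had 406 counts after silencing and 679 without it. In CPM these were 10.4 and 16.1, and the log2 fold change was -0.63 (-0.82 to -0.45). After Apln this was the largest difference among the 7 genes, and the intervals of the pair did not overlap. Of the genes with at least 200 summed counts, 2.65% had a lower value. Angptl4 lies on the minus strand of chromosome 17 from 33773750 to 33781830.

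Angptl2, a ligand tied to inflammation that stromal cells and adipocytes secrete, had by far the most counts, 15868 against 18061. Its level of 405 CPM was 94.7% of the control level of 427 CPM, a log2 fold change of -0.08 (-0.11 to -0.05). The interval excludes 0 but the difference is small, and 33.8% of the genes with at least 200 summed counts had a lower value. Angptl2 lies on chromosome 2 from 33216069 to 33247717, where it overlaps Ralgps1 on the opposite strand without sharing exon bases. Angpt1, the activating ligand of Tek, had 250 counts against 267, the fewest of the 7. At 6.38 and 6.32 CPM, its log2 fold change was 0.01 (-0.24 to 0.27), so that no difference could be detected with these counts. Angpt1 spans 42424723 to 42676977 on chromosome 15, minus strand, and 14.2% of its exon bases are shared with the antisense gene Gm17473, which had 1 count against 0. No source used here says if reads were assigned by strand, so those of this pair may not be told apart.

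**Figure D2:**
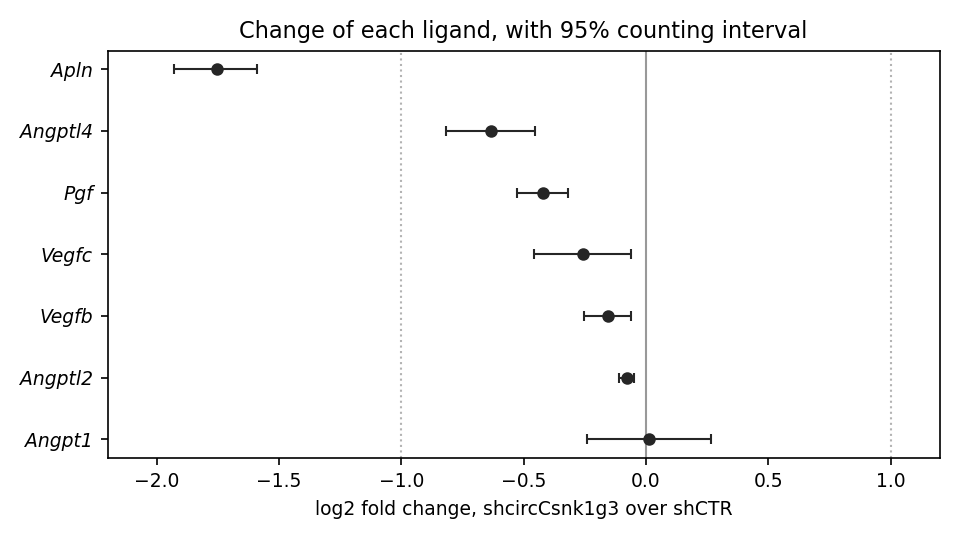
Log2 fold change of each ligand, shcircCsnk1g3 over shCTR, with its 95% interval from the counts of the 2 libraries. Dotted lines mark a 2-fold difference. Apln alone lies beyond the line on the left, and the interval of Angpt1 alone reaches across 0.

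Read together, 1 of the 7 genes, Apln, was at least 2-fold lower, as were 2.55% of the 12941 genes that passed the filter (330), and Apln was on the list for that reason. None was at least 2-fold higher, against 2.13% of those genes (275). Among genes with at least 200 summed counts, as all 7 have, 0.741% were at least 2-fold lower and 0.563% at least 2-fold higher. The interval lay below 0 for 6 of the 7 and above 0 for 0, compared with 28.2% and 26.9% of the genes that passed the filter. Nothing about the ligands as a group can be read from these counts, since the genes were picked with their values known. Their median log2 fold change was -0.26, beside 0.00 over all genes that passed, and without Apln it was -0.21.

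**Figure D3:**
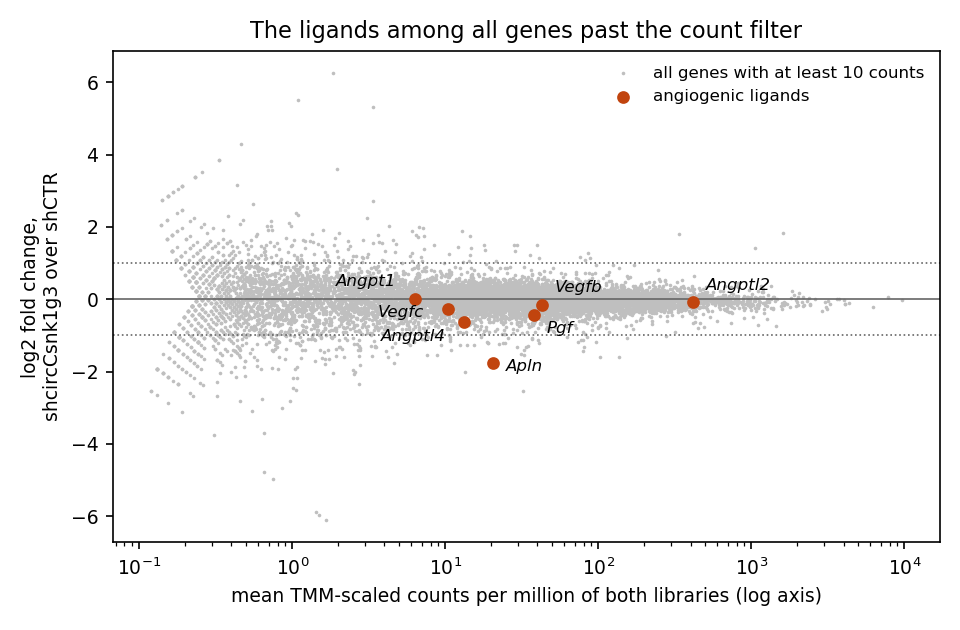
Each grey point is 1 of the 12941 genes that passed the count filter, by its mean TMM-scaled CPM (log axis) and its log2 fold change. Dotted lines mark a 2-fold difference, and the 7 ligands are drawn in red. Apln, at -1.75, is the only ligand beyond a 2-fold line.

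To compare levels between genes, counts were divided by the exon length of each gene and scaled to a sum of 1000000 per library (TPM). In the control library the order was Angptl2 (214), Vegfb (89.1), Pgf (47.4), Apln (31.9), Vegfc (14.7), Angptl4 (14.3) and Angpt1 (3.83). The Poisson intervals of neighbours in this order overlapped for Vegfc and Angptl4 only. In the silenced cells Angptl2 (209), Vegfb (82.1) and Pgf (36.3) kept the first places. Vegfc (12.6) then stood before Apln (9.68), Angptl4 (9.47) and Angpt1 (3.97), and the intervals of Apln and Angptl4 overlapped. Summed over the 7 genes, the length-scaled level was 363 TPM after silencing and 416 TPM in the control. Apln made up 2.67% of that sum after silencing and 7.67% in the control, and Angptl2 57.5% and 51.6%. The annotation may include transcripts that these cells do not use, so the length of a gene, and with it the order, is approximate.

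The receptors of these ligands were in part undetected in the sarcoma cells, and 6 of 13 genes on that list had at most 3 counts in each library. Kdr and Flt4, the receptor tyrosine kinases that bind Vegfc, had 0 counts in both libraries, which allows up to 0.0765 CPM with silencing and 0.0710 CPM for shCTR. Aplnr, the apelin receptor, had 2 counts and 3, and Tek had 0 and 1. Flt1, which binds Vegfb and Pgf, was the exception among these receptor tyrosine kinases, with 1646 counts against 1421. Its level was 42.0 CPM after silencing and 33.6 CPM for shCTR, with 0.32 (0.22 to 0.42) as log2 fold change. Flt1 was higher in the library in which Pgf and Vegfb were lower, and a link between these differences was not tested.

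Of 13 receptors and binding integrins on the list, 7 passed the filter, with a median log2 fold change of -0.26. None of the 7 was past 2-fold, beside 2.55% lower and 2.13% higher of all genes that passed. The interval lay below 0 for 5 of the 7 and above 0 for 1, beside 28.2% and 26.9% of all genes that passed. Of the 10662 genes with at least 200 summed counts, as these 7 have, it lay below 0 for 3305 and above 0 for 3149. Itgb1, an integrin chain, and Nrp2, a coreceptor for Vegfc, had the highest CPM. Itgb1 had 24753 counts against 33882, with -0.35 (-0.37 to -0.32). For Nrp2 the counts were 20684 and 23181, with -0.06 (-0.08 to -0.03). Nrp1, a coreceptor of Vegfb and Pgf singled out after its values were seen, had 203 counts against 383, with -0.80 (-1.06 to -0.56).

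**Figure D4:**
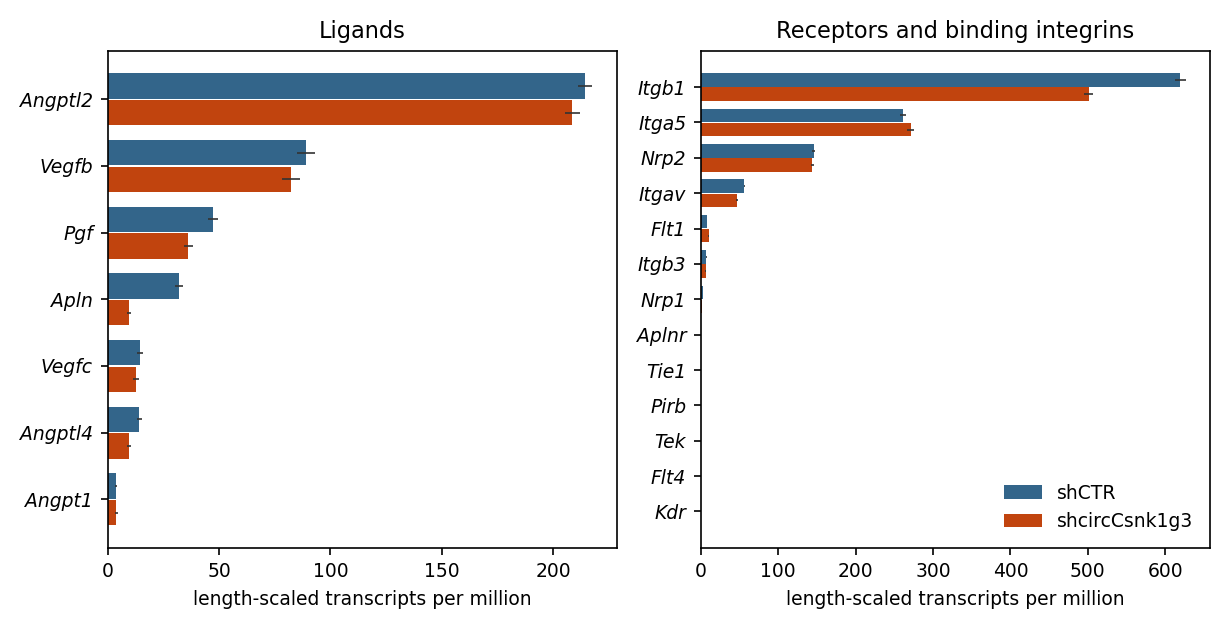
Length-scaled levels (TPM) of the 7 ligands and of 13 receptors and binding integrins in both libraries, as bars from 0 with 95% Poisson intervals of the counts as lines. The panels have different axes. Angptl2, at 209 and 214, is the most abundant ligand, while Aplnr, Tek, Kdr and Flt4 have no visible bar.

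Precursor proteins of this group are cut by proteases or held by carriers, and 7 of the 14 genes on that list passed the filter. None of these 7 was past 2-fold in either direction, beside 2.55% lower and 2.13% higher of all genes that passed. The median of the list was -0.15. Furin, the convertase that cleaves several of the ligands, had 8674 counts against 10363, with -0.15 (-0.19 to -0.11). Ctsd, a lysosomal protease, had 17700 and 18725, with 0.03 (-0.00 to 0.06). Ccbe1, Adamts14, Lpl and Gpihbp1 were singled out after their values were seen. Ccbe1, a secreted protein needed to activate Vegfc, had 341 counts against 693, a log2 fold change of -0.91 (-1.11 to -0.73), and Adamts14, a protease that can cleave Vegfc, had 2333 against 3217 with -0.36 (-0.43 to -0.28). Lpl, the target of Angptl4, had 0 counts in both libraries, as did its carrier Gpihbp1.

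Other angiogenic ligands differed in both directions. Of 27 genes on that list, 17 passed the filter, with 8 lower and 9 higher and a median of 0.03. Over all genes that passed, 6420 were lower and 6521 higher. Cxcl12, a chemokine that draws endothelial precursors and leukocytes, was at least 2-fold lower, with 632 counts against 1939 and a log2 fold change of -1.51 (-1.64 to -1.38). Pdgfb, which recruits pericytes to new vessels, was at least 2-fold higher, with 132 counts against 66 and 1.08 (0.67 to 1.56). It was no longer past 2-fold with a prior count of 10, and a minimum of 200 summed counts leaves it out. The highest CPM belonged to Hdgf, a growth factor that is found largely in the nucleus, and Ccn1 (Cyr61 in the table), a matrix protein that binds integrins. Hdgf had 30690 and 33071 counts, with -0.00 (-0.02 to 0.02), and Ccn1 had 8689 and 14255, with -0.61 (-0.65 to -0.57).

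Further ligands of that list, most of them relatives of the 7 genes, are named here after their values were seen. Vegfd (Figf in the table), a lymphatic growth factor like Vegfc, had 442 counts against 619, with -0.38 (-0.56 to -0.20). Angpt2, which can oppose Angpt1 at Tek, had 304 against 276, with 0.25 (0.01 to 0.49). Angptl6 had 107 against 58, with 0.97 (0.52 to 1.48), in the opposite direction to Angptl4. Fgf2, which belongs to another family, the fibroblast growth factors, had 341 against 189, with 0.95 (0.70 to 1.22). Apela, which encodes the other known ligand of the apelin receptor, had 0 counts in both libraries.

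Inhibitors of vessel growth were also mixed. Of 13 genes on that list, 9 passed the filter, and the median was 0.34 with 6 higher and 3 lower. Over all genes that passed, 6521 were higher and 6420 lower. None of the 9 was past 2-fold, beside 2.55% lower and 2.13% higher of all genes that passed. The summed level of the list went the other way from its median, at 3513 CPM after silencing and 3989 CPM for shCTR. Thbs1 is the most abundant of the list in the control. Thbs1, encoding thrombospondin, had 42428 counts against 76914, with -0.75 (-0.77 to -0.73). Its relative Thbs2 had 51495 against 42799, with 0.37 (0.36 to 0.39). With the 8 genes of at least 200 summed counts, the median of the list was 0.18.

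Apln and Angptl4 are known targets of hypoxia-inducible factors. No gene on the lists of oxygen sensing and of other HIF targets was past 2-fold. All of them have at least 200 summed counts, and of all such genes 0.741% were at least 2-fold lower and 0.563% higher. What this says of either ligand was not tested. Of 8 oxygen-sensing genes all passed the filter, with a median of -0.06. Hif1a, the regulated subunit, had 15224 counts against 14367, with 0.19 (0.16 to 0.22), and its partner Arnt had 3421 against 3390, with 0.12 (0.05 to 0.19). Egln3, an oxygen-dependent hydroxylase that is itself induced by low oxygen, was singled out after its values were seen and had 1556 against 2397, with -0.52. Of 14 HIF target genes, 11 were lower and 3 higher, and the median was -0.18. Over all genes that passed, 6420 were lower and 6521 higher. The interval lay below 0 for 9, above 0 for 3 and across 0 for 2, beside the 28.2% below and 26.9% above of all genes that passed. The most abundant were the glycolytic genes Ldha, with 56643 counts against 73114 and -0.26 (-0.28 to -0.24), and Pgk1, with 29539 against 37909 and -0.25 (-0.27 to -0.23). The 3 higher genes, singled out after their values were seen, were Ero1a (Ero1l in the table), Ndrg1 and Ddit4. Their log2 fold changes were 0.53, 0.32 and 0.14, and that of Ero1a was the largest difference of the HIF target list.

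Angptl4 is also a target of the fatty acid receptors PPAR. Of 12 such genes, 7 passed the filter and the median was -0.22, or -0.11 in the deposited scaled table and with minimums of 50 or 200 summed counts, which leave out Pdk4. Pdk4, a mitochondrial kinase, had 1 count against 14, and the interval of its log2 fold change ran from -9.10 to -0.98. Plin2, the coat protein of lipid droplets, had 15711 counts against 19653, with -0.22 (-0.25 to -0.19). Across all 7 lists of related genes, 2 of the 69 genes that passed the filter, Cxcl12 and Pdk4, were past 2-fold on the lower side and 1, Pdgfb, on the higher side. These counts are near the 2.55% and 2.13% of all genes that passed. The lower count was 1 in the deposited scaled table and with minimums of 50 or 200 summed counts, and the higher count was 0 with a prior count of 10 or the minimum of 200.

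**Figure D5:**
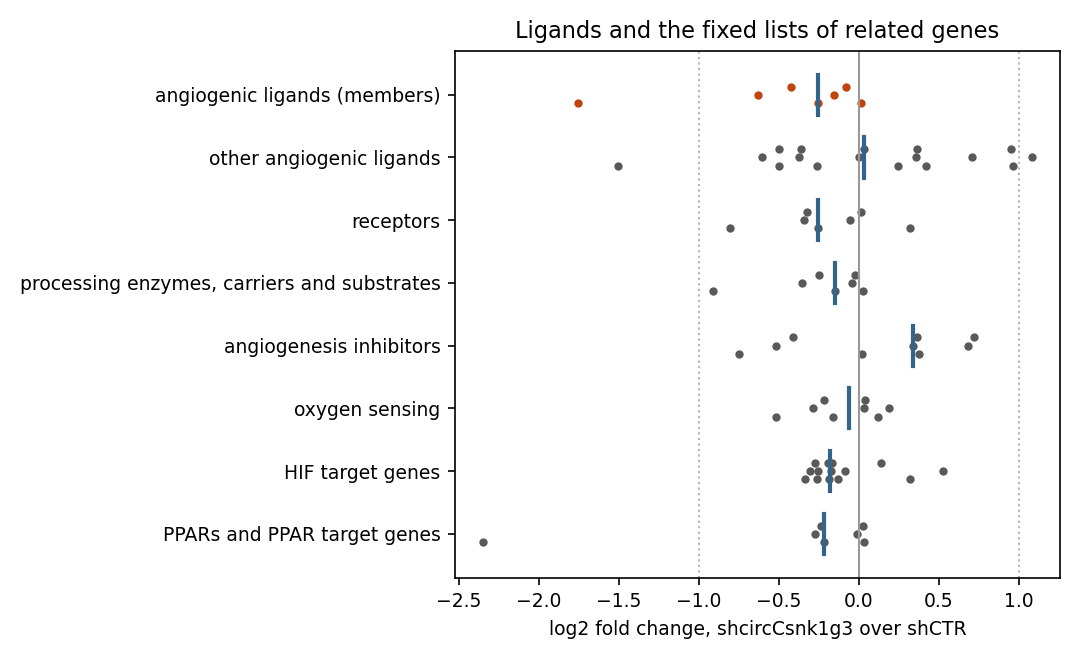
Log2 fold changes of the 7 ligands (red) and of the genes of the 7 related lists that passed the filter (grey), 1 point per gene, with the median of each list as a blue bar and dotted lines at a 2-fold difference. Apln at -1.75 and Cxcl12 at -1.51 stand apart from their lists on the left, as does Pdk4, which rests on 15 counts.

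The labelled cell type was checked against marker lists. Of 10 mesenchymal markers 9 passed the filter, with summed levels of 12459 CPM after silencing and 13221 CPM in the control, and Thy1 had 0 counts and 1. Endothelial markers summed to 107 counts and 121, of which Plvap gave 85 and 86, and Emcn, Cldn5, Robo4 and Sox17 had 0 in both libraries. Leukocyte markers summed to 90 and 163 counts, nearly all from Cd68 (87 and 155), while Ptprc had 1 and 0. The list for lung epithelium summed to 120 and 75 counts, mainly Krt8 (92 and 46), and Epcam and Sftpc had 0. Of 6 mural cell markers, Cspg4 gave 15833 of 15854 counts after silencing and 13207 of 13223 in the control. The part of the endothelial, leukocyte, lung epithelial and mural markers in the results was not tested.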

How the data were processed

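RNA with a poly(A) tail from 1 shcircCsnk1g3 and 1 shCTR culture of mouse sarcoma cells was sequenced with a stranded kit. The authors aligned reads to GRCm38 with STAR and deposited expected counts per gene from RSEM, rounded to whole numbers. RSEM divides reads that fit several genes, and whether it used the strand is not given in the sources used here. The signal in the other deposited table is the same count scaled by TMM, 1 constant per library, for 11624 genes.

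The 92 spike-in rows, all at 0, were left out. TMM factors (1.01 and 0.989) came from edgeR 4.0.16 in R 4.3.3 over the 12941 genes that reached 10 counts in at least 1 library, and were applied with a prior count of 2. Intervals and figures used python 3.11.15, scipy 1.17.1 and matplotlib 3.10.9. With 1 library per condition there was no test; a difference of at least 2-fold was counted and set beside the same count over all genes. A count of 0 was taken to allow up to 3 counts. Positions and exon lengths are from GENCODE M21, which holds 25251 of the 25509 gene identifiers. Steps were tested on simulated data.

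The genes described, the lists of related genes and the markers were chosen with earlier results of these data known. Genes named from a list are those at least 2-fold apart with an interval that excludes 0, the 2 with the highest mean CPM, and the receptors Aplnr, Flt1, Kdr, Flt4 and Tek. The 4 genes nearest to Apln in log2 fold change were also named. One gene that this rule selects is not reported here. Others are said to have been singled out after their values were seen. Prior counts of 0.5 and 10, scaling by DESeq2 1.42.0 or by the totals alone, the deposited scaled table, other count minimums (none, or sums of 50 and 200), and thresholds of 1.5-fold and 4-fold were tried as alternatives.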

Additional observations from a re-analysis of the deposited data

How the results depend on the processing

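No paired analysis was possible because each condition had 1 library, and for that reason no library could be left out. Of 56 values of the 7 ligands under alternatives, 55 stayed within their intervals, and Apln ranged from -1.76 to -1.72. The exception was Angptl2, at -0.048 with total counts, a setting that moved the median of all genes by 0.03. With a 1.5-fold threshold 2 of the ligands, Apln and Angptl4, were past it, both on the lower side. Of the 12941 genes that passed the filter, 817 were lower and 698 higher by that threshold. With 4-fold 0 ligands were past it, beside 52 lower and 49 higher of those genes.

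The numbers of lower and higher genes over the whole table were 171 and 150 with a prior count of 10, 168 and 107 in the deposited table, 623 and 732 without a filter, 157 and 132 with 50 summed counts, 79 and 60 with 200, 817 and 698 at 1.5-fold, and 52 and 49 at 4-fold. For the related lists, 1 gene, Cxcl12, was lower in the deposited table and with either minimum. A different gene, Pdk4, was the 1 that was lower at 4-fold. Without a filter 4 were lower, and at 1.5-fold 6 were. Higher were 0 with a prior count of 10, with 200 summed counts and at 4-fold, 2 without a filter and 6 at 1.5-fold. The median of the PPAR list was -0.11 in the deposited table and with both minimums, all of which leave out Pdk4. That of the other ligands ranged from 0.00 to 0.14. Higher minimums and thresholds select fewer genes.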
